A study of Arabidopsis thaliana with 9 samples.

Results

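Wild-type (WT) roots of Arabidopsis thaliana were profiled by RNA-seq, and the report describes which genes and gene families made up their transcripts and how far the libraries differed from each other. The members were the expected count and FPKM values of the 3 WT libraries, out of 9 libraries in the series, and 22990 genes were listed in at least 1 of the 3. The genotype label names a wild type, the ecotype is not given in the labels, and no comparison with the other genotypes was made. Seedlings were 9 days old, had grown on 1/2 MS, a plant mineral medium used below full strength, and only their roots were taken for total RNA. Whether the 3 libraries were made from separate pools of plants is not stated, and the spread between them may therefore be technical in part. An expected count is an estimate of the reads that came from a gene. FPKM is that estimate per kilobase of transcript and scaled to the size of the library, so that levels can be compared between genes of different length.

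A young Arabidopsis root holds a dividing tip, elongating cells and mature cells in concentric layers: epidermis with root hairs, cortex, endodermis with its Casparian strip and suberin, and a central cylinder of pericycle, phloem and xylem. Its cells are known for ER bodies, compartments of the endoplasmic reticulum filled with the beta-glucosidase PYK10. When a cell is damaged, PYK10 meets its glucoside substrates and jacalin-related lectins that gather in a complex with it. The outer layers take up water, nitrate, phosphate and iron, and their walls are rich in structural glycoproteins such as the extensins.

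The libraries were almost equally deep, with 12324144, 12321647 and 12278037 expected counts in replicates 1, 2 and 3. They listed 21979, 21952 and 22079 genes. A mean FPKM of at least 1 was reached by 18295 genes, and 17729 reached it in each of the 3 libraries. Those 18295 genes held 99.8% of the counts. At the upper end, 41 genes had a mean of at least 1000 FPKM and 1112 lay between 100 and 1000 FPKM, while 8782 lay between 10 and 100 FPKM. The 10 genes with the most counts took 7.32% ± 0.852 (SD, n = 3) of a library, the top 100 took 20.4% ± 1.55 and the top 1000 took 47.5% ± 1.52. It took 1161 genes to reach 50% of the counts. Genes of the mitochondrial genome, by their locus names, held at most 0.00411% of a library's counts, and those of the plastid genome at most 0.000947%.

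Replicate 3 stood apart from the other libraries. Over the 17149 genes with a mean of at least 30 counts, the median difference in size between replicates 1 and 2 was 0.128 on the log2 scale, against 0.223 between replicates 1 and 3 and 0.192 between replicates 2 and 3. Only 24 of these genes lay at least 2-fold apart between replicates 1 and 2, while 311 did between replicates 1 and 3 and 248 between replicates 2 and 3. All pairs still ranked the genes alike, with Spearman coefficients across these genes, which are not independent replicates, of 0.9923, 0.9776 and 0.9811 in the same order. The libraries were not copies of each other, since a chi-square statistic of their counts, divided by its degrees of freedom, was 3.98, 16 and 12.1 for the same pairs, where sampling noise alone gives a value near 1. Values by library are given for the genes where this matters most, and means with SD for the others.

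The highest level belonged to MT1A (AT1G07600), which encodes a metallothionein, a small cysteine-rich protein that binds copper and other metals. It was listed at 18680, 22062 and 25441 FPKM in replicates 1, 2 and 3, a mean of 22061 ± 3381 (SD, n = 3). Its rank depends on a very short gene model of 138 bases, which RefSeq marks as partial and which lies at chromosome 1, 2338904 to 2339321 in TAIR10.1. This span is inside AT1G07590 on the same strand, itself listed at 1482 FPKM, so reads of the 2 genes may have been shared between them. By expected count MT1A was 24th.

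PYK10 (AT3G09260) held more counts than any other gene. Its expected counts were 244488, 271179 and 288452, and its share of the counts was 2.18% ± 0.184 (SD, n = 3). On the FPKM scale it reached 10938, 12133 and 12941, a mean of 12004 ± 1008, and ranked 3 by level. No other gene passed 2% of the counts, and replicate 1 was the lowest and replicate 3 the highest library.

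AT1G21313, an uncharacterized gene, was listed second at 9943, 10021 and 16985 FPKM. It lies wholly inside EXT3 (AT1G21310) on the opposite strand, over 522 bases. EXT3, which encodes an extensin that cross-links into a network in the growing cell wall, ranked 4 at 6680, 6525 and 8611 FPKM. The strand setting of the counting is not given in the sources used here, and the listed values of both genes are therefore uncertain. The ratio of AT1G21313 to EXT3 counts was 0.411, 0.424 and 0.544 in the 3 libraries, so the estimates did not move in strict proportion.

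The next levels belonged to genes of several kinds. DR4 (AT1G73330), annotated as drought-repressed and related to Kunitz-type protease inhibitors, was listed at 4859, 5232 and 5555 FPKM. MLP34 (AT1G70850), a major latex protein-like gene, followed at 4203, 5098 and 5675 FPKM. AT4G23670, annotated in the same polyketide cyclase and lipid transport superfamily, stood at 3402 ± 242 FPKM (SD, n = 3). The papain-type cysteine protease AT4G11320 stood at 3312 ± 254 FPKM, MLP328 (AT2G01520) at 3202 ± 416 FPKM and the proline-rich extensin-like AT2G43150 at 2897 ± 135 FPKM. The order of these 4 differed between libraries: AT4G23670 was the highest of them in replicates 1 and 2, and MLP328 was in replicate 3.

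Ranks 11 to 25 were mostly genes of defence enzymes, lectins, aquaporins and ubiquitins. CYP81F4 (AT4G37410), a cytochrome P450 that modifies indole glucosinolates, was listed at 2350 ± 361 FPKM (SD, n = 3). The uncharacterized AT4G37409, on the opposite strand, covers 2140 bases of it and was listed at 2276 ± 454 FPKM, so these values too may share reads. NSP1 (AT3G16400), which directs glucosinolate breakdown towards nitriles, stood at 2314 ± 476 FPKM, and the glycine-rich GRP9 at 2264 ± 160 FPKM. The lectins JAL33 and PBP1 stood at 2218 ± 253 and 2023 ± 179 FPKM. Water channels took 5 places: PIP2A (2113 ± 207 FPKM), TIP2 (1983 ± 322), GAMMA-TIP (1722 ± 212), PIP1B (1624 ± 87.5) and PIP2B (1485 ± 138). AT1G65349, a 228-base model that overlaps UBQ13, listed in no WT library, on the opposite strand, was listed at 1861 ± 102 FPKM. UBQ10 (1594 ± 103 FPKM), UBQ3 (1568 ± 168 FPKM) and TCTP (1535 ± 143 FPKM), a growth-related protein of most eukaryotic cells, completed the 25.

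**Figure D1:**
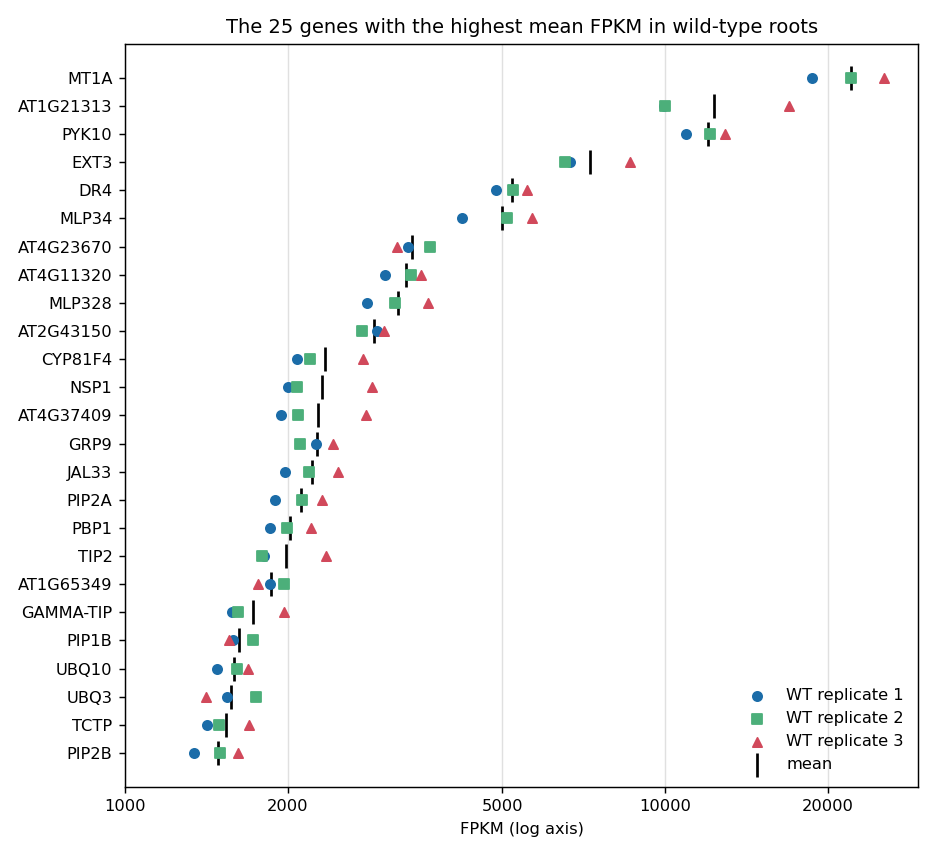
FPKM (log axis) of the 25 genes with the highest mean, 1 point per WT library and a black bar for the mean. MT1A lies between 18680 and 25441 FPKM, and replicate 3 is the highest library for most of these genes, with PIP1B, UBQ3, AT4G23670 and AT1G65349 as exceptions.

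Membership of the top was steadier than order within it. Of the 25 genes, 22 were among the 25 highest in each of the 3 libraries, and of the 100 highest 87 were. Of the 24 neighbouring pairs in this order, 7 kept their order in all 3 libraries. Ranking by count instead of FPKM kept 19 of the 25 and 73 of the 100. JAL34 (AT3G16460) was 10th by count at 48993, 50058 and 49700 counts and only 27th by FPKM at 1471 ± 16.8 FPKM (SD, n = 3).

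The highest genes had shorter models, although FPKM divides by length and so favours short models by construction, with a median of 1233 bases in the top 100 and 1218 bases at ranks 101 to 1000, against 1641 bases in the other genes with a mean of at least 1 FPKM. They also had fewer introns, with medians of 2, 3 and 4 in the same order, although genes without any intron were rarer (11% of the top 100 against 15.3% of the other genes). GC content of the transcripts was similar, at medians of 42.4% and 41.4%. Of the top 100, 16 overlapped another gene listed at 1 FPKM or more, 14 of them on the opposite strand, a smaller share than the 24.8% among all genes with a mean of at least 1 FPKM.

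Some of the highest genes lay near each other. Of the top 100, 16 were within 10 kb of another member of the top 100, compared with 8 at ranks 101 to 200, 8 at ranks 201 to 300, 4 at ranks 1001 to 1100 and 2 at ranks 5001 to 5100. MT1A and its neighbour MT1C (687 FPKM), and MLP328 and MLP329 (951 FPKM), were such neighbours, as were AT4G23670 and AT4G23680 (677 FPKM). When overlapping pairs, such as AT1G21313 with EXT3 and AT4G37409 with CYP81F4, were not counted, 12 remained in the top 100, and the numbers at the other ranks were as before. The 12 include AT1G07590, through MT1C.

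The stretch of chromosome 3 from 5562400 to 5599224 (TAIR10.1) held NSP1, PBP1, JAL33 and JAL34 of the top 100. Its 9 listed genes, 3 nitrile specifiers and 6 genes of jacalin-related lectins, held 1.38%, 1.45% and 1.65% of the counts in the 3 libraries. PBP1 (AT3G16420), named for binding PYK10, lay between NSP4 (48.8 ± 4.02 FPKM, SD, n = 3) and JAL31 (261 ± 28.2 FPKM). JR1 (AT3G16470), a lectin gene first known as jasmonate-responsive, was listed at 453 ± 22.0 FPKM, a value that may share reads with the overlapping JAL34. The members were thus far from equal: MLP-300B was listed at 62.7 ± 6.57 FPKM and NSP3 (AT3G16390) at 9.30 ± 0.824 FPKM. Near-identical paralogs can exchange reads, and how the counting split them is not given in the sources used here.

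Other genes of ER bodies, chosen for naming after their values were seen, ranged widely in level. NAI2, which is needed for ER body formation, was listed at 551, 562 and 306 FPKM, lower in replicate 3 than in both others. NAI1, the bHLH factor that activates PYK10, was listed at 88.5, 98.0 and 112 FPKM. The ER body membrane proteins MEB1 and MEB2 stood at 58.4 ± 7.27 and 23.2 ± 2.07 FPKM (SD, n = 3). Within the beta-glucosidases PYK10 supplied 91% of the counts, and BGLU21 (391 ± 94.4 FPKM) and BGLU22 (293 ± 52.2 FPKM) came next. BGLU21 and BGLU22 were lowest in the library where PYK10 was highest, and the FPKM ratio of PYK10 to BGLU21 was 22.6, 30.9 and 43.8 in replicates 1, 2 and 3.

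The 60 bases before the RefSeq transcript start were searched for TATAAA, the core of the TATA box that positions RNA polymerase II, on the sense strand. Of the 10 genes with the highest mean FPKM, 4 held it. The 4 windows are shown 5′ to 3′ on the strand of the gene, with the match in capitals. The windows of the rest of the 10, among them MT1A, AT1G21313 and EXT3, held no match and are not shown.
PYK10 (chr3:2843782-2843841, minus strand): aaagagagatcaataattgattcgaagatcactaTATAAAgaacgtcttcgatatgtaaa
DR4 (chr1:27569824-27569883, minus strand): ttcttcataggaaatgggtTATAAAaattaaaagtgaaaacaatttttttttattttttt
MLP328 (chr2:235865-235924, plus strand): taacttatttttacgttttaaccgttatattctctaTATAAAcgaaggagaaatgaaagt
AT2G43150 (chr2:17945602-17945661, plus strand): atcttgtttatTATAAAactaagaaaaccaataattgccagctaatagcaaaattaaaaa
The match began 26 bases before the start in PYK10, 24 in MLP328, 41 in DR4 and 49 in AT2G43150. It was present in 18 of the top 100 windows (18%), in 15.6% of the 897 windows at ranks 101 to 1000, in 11.9% of the 18263 windows of genes with a mean of at least 1 FPKM and in 12.7% of all 27425 protein-coding windows. Among the 4609 protein-coding genes not listed in any WT library it was present in 14.3%, more than among the genes of at least 1 FPKM. On either strand the shares were 18%, 22.1%, 17.2%, 18% and, for genes not listed, 19.1%, so the order of the groups depended on the strand counted. Where the annotated start is not the true start, as in the partial model of MT1A, the window misses the promoter.

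The 35 families examined held 1831 listed genes and 26.2% of the counts on average. Shares of counts favour long genes and large families, so they describe where the reads went and not the level of any gene. Ribosomal proteins took the most, at 3.57%, 2.98% and 2.65% in replicates 1, 2 and 3, spread over 318 listed genes of which 303 reached 1 FPKM. No member dominated: the highest, AT5G20290, was listed at 717 ± 101 FPKM (SD, n = 3) and held 2.59% of the family's counts. The emb2386 gene (574 ± 92.1 FPKM) and AT3G60245 (467 ± 56.0 FPKM) came next.

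Translation elongation factors took 0.711% ± 0.0580 (SD, n = 3) of the counts, with the eEF1A gene AT5G60390 at 1087 ± 145 FPKM. HSP70 and HSP90 chaperones took 0.727% ± 0.0663, led by HSC70-1 at 1105 ± 70.1 FPKM, a chaperone that is made without heat stress. Polyubiquitins and ubiquitin fusions took 0.631% ± 0.0234. Tubulins took 0.415% ± 0.0270, with TUA6 at 362 ± 23.2 FPKM, and actins 0.243% ± 0.00781, with ACT2 at 532 ± 31.3 FPKM. Histones took 0.274% ± 0.00983, led by AT4G40040 at 476 ± 29.8 FPKM.

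The beta-glucosidases held 2.39% ± 0.150 of the counts (SD, n = 3) and were an example of a family carried by its top member. The germin-like proteins were another, with GLP5 (692 ± 48 FPKM) at 83.8% of their counts, and so were the nitrile specifiers, with NSP1 at 93.5%. Jacalin-related lectins held 1.32% ± 0.107. Cytochromes P450 held 1.2% ± 0.132 over 201 listed genes, and after CYP81F4 their highest members were CYP705A5 (510 ± 109 FPKM) and CYP708A2 (298 ± 38.2 FPKM), both of the root triterpene pathway to thalianol derivatives. Papain-type proteases held 1.1% ± 0.0865, with RD19 at 766 ± 115 FPKM and RD21A at 610 ± 65.9 FPKM. Glutathione S-transferases, which detoxify by conjugation, held 0.583% ± 0.0141, led by GSTF9 at 943 ± 65.1 FPKM.

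Cell wall proteins formed a second large block. Extensins and other proline-rich wall proteins held 2.27%, 2.2% and 2.63% of the counts, 51% of which belonged to EXT3. Class III peroxidases, which cross-link wall polymers, held 0.88% ± 0.0902 (SD, n = 3) and were shared more evenly, with AT3G32980 at 1217 ± 194 FPKM, PRXR1 at 900 ± 21.8 FPKM and AT2G37130 at 597 ± 91.0 FPKM. Arabinogalactan and fasciclin-like proteins held 0.575% ± 0.0342, with AGP14 at 623 ± 51.1 FPKM. AGP4 (527 ± 40.9 FPKM) lies opposite AT5G10435, which was listed at 1015 ± 142 FPKM, and its value is uncertain for that reason. Expansins, which loosen walls, held 0.105% ± 0.0151, with EXPB3 at 171 ± 32.4 FPKM, and XTH enzymes, which cut and rejoin xyloglucan, held 0.149% ± 0.0143, with XTH24 at 293 ± 55.5 FPKM. Dirigent proteins held 0.168% ± 0.0280, with ESB1 highest at 260 ± 47.6 FPKM.

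Membrane transport was led by aquaporins, at 1.63%, 1.74% and 1.90% of the counts. Of their 33 listed genes 26 reached 1 FPKM, the median member was listed at 50 FPKM, and 9 were among the 100 highest genes by FPKM, more than of any other family. Subunits of the vacuolar proton pump held 0.460% ± 0.00417 (SD, n = 3), the smallest relative spread of all the families, and plasma membrane proton pumps held 0.287% ± 0.0186, of which AHA2 (534 ± 49.7 FPKM) supplied 63.6% and HA1 (236 ± 5.58 FPKM) supplied 29.6%. Among nitrate transporters NRT1.5, which loads nitrate into the xylem, was highest at 506 ± 52.7 FPKM, above NRT1.1 at 169 ± 34.3 FPKM. Ammonium transporters were led by AMT1;1 at 75.7 ± 15.2 FPKM. PHT1 phosphate transporters had the largest relative spread between libraries, with 0.0429%, 0.0450% and 0.0987% of the counts.

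Metallothioneins were a family of 6 genes, all above 1 FPKM, with MT2B at 1143 ± 151 FPKM (SD, n = 3) after MT1A. Enzymes of methionine and S-adenosylmethionine metabolism, the methyl donor and ethylene precursor, held 0.919% ± 0.0766 of the counts over 10 genes. HOG1 (1176 ± 87.8 FPKM), SAM1 (965 ± 77.2 FPKM) and ATMS1 (904 ± 101 FPKM) led them. Cytosolic glycolysis enzymes held 0.510% ± 0.0277, with GAPC1 at 971 ± 47.2 FPKM.

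**Figure D2:**
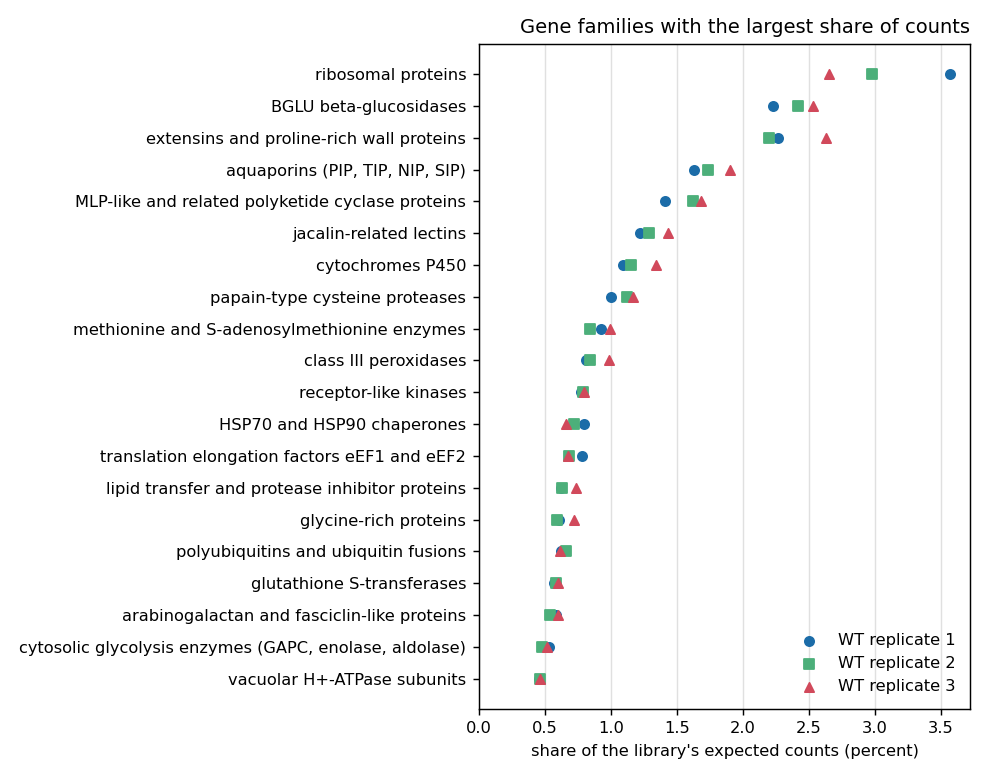
Share of each library's expected counts (percent) in the 20 families with the largest shares, 1 point per WT library. Ribosomal proteins hold 3.57% in replicate 1 and 2.65% in replicate 3, while aquaporins hold 1.63% and 1.90%.

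Transcription factors were listed widely and at low levels. The 10 families examined had 717 listed genes and 1.92% of the counts together. The homeobox gene HB-1 was the highest, at 374, 408 and 454 FPKM, and supplied 21.3% of its family's counts. The highest of the other families were bZIP2 (245 ± 32.5 FPKM, SD, n = 3), the auxin repressor IAA9 (216 ± 7.57), MYB34 (173 ± 20), which activates indole glucosinolate synthesis, RAP2.12 of the AP2/ERF family (148 ± 9.74), an oxygen-responsive factor, NAC083 (135 ± 17.4), bHLH115 (114 ± 7.78), WRKY65 (84.7 ± 13.1), ARF2 (78.7 ± 6.35) and the GRAS gene SCL8 (61.5 ± 5.41). Against these levels the 2 genes that the series concerns were scarce. ERF13 (AT2G44840), an ethylene response factor, was listed at 1.03, 0.960 and 1.25 FPKM with 14, 13 and 17 counts. KCS16 (AT4G34250), a 3-ketoacyl-CoA synthase that elongates fatty acids, was listed at 1.65, 1.26 and 1.5 FPKM with 43, 33 and 39 counts.

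The label of root tissue was checked against cell type markers, with the limit that in whole roots fewer cells of a type and less RNA per cell cannot be told apart. All 10 markers of endodermis and Casparian strip were above 1 FPKM, with a summed level of 735, 833 and 938 FPKM in the 3 libraries. ESB1 (260 ± 47.6 FPKM, SD, n = 3), CASP1 (176 ± 28.6), PER64 (115 ± 12.1) and CASP2 (97.0 ± 9.45) were the highest, and their regulator MYB36 (16.4 ± 1.22) the lowest. CASP4, CASP5, SCR and GSO1 lay between 18.9 and 38 FPKM. All 7 suberin genes were present, summing to 426, 440 and 464 FPKM, with ASFT (144 ± 10.4) and HORST (112 ± 11.9) highest and MYB41 (14.9 ± 0.184) lowest. GPAT5, CYP86B1, FAR4 and FAR5 lay between 34.7 and 51.5 FPKM.

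All 9 xylem genes were above 1 FPKM as well. The protease genes XCP1 and XCP2, which act in dying vessel cells, stood at 131 ± 15.2 and 101 ± 7.17 FPKM (SD, n = 3). The secondary wall cellulose synthases CESA4 (28.2 ± 2.48 FPKM), CESA7 (21.9 ± 1.62) and CESA8 (17.4 ± 0.931), which form a complex, lay close to each other, and LAC4 was listed at 40.7 ± 2.04 FPKM. The switches of vessel fate were far lower, at 6.04 FPKM for MYB46, 2.07 for VND7 and 1.51 for VND6. The phloem list reached its highest levels in SUC2 (40.9 ± 4.49 FPKM) and SEOR1 (33.1 ± 2.35), while APL, DOF2.4, CALS7 and NAC086 lay between 1.53 and 12.6 FPKM. PHO1, which loads phosphate into the xylem, led the pericycle list at 174 ± 12 FPKM, and LBD16, SKOR, LBD29 and GATA23 lay between 1.42 and 5.33 FPKM.

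Root hair genes were all present, summing to 310, 302 and 361 FPKM. The wall protein gene PRP3 was highest at 154 ± 12.9 FPKM (SD, n = 3), the expansin genes EXPA7 and EXPA18 stood at 48.6 ± 10.2 and 37.7 ± 5.92 FPKM, and LRX1, COBL9, MRH6, RHD6 and RSL4 lay between 7.18 and 28.6 FPKM. GL2 (6.99 ± 0.807 FPKM) and WER (6.14 ± 1.39), which mark non-hair epidermis, and the cortex genes AT1G09750 (12.9 ± 1.36) and AT1G62500 (2.96 ± 0.871) were present at lower levels.

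Genes of the root tip were scarce. WOX5, the marker of the quiescent centre, was listed at 1.25, 0.780 and 0.860 FPKM with 16, 10 and 11 counts, and RGF1 at 0.490 ± 0.173 FPKM (SD, n = 3). PLT1 and PLT2 stood at 1.80 ± 0.270 and 1.57 ± 0.111 FPKM, and SHR, which is made in the stele, at 14.4 ± 2.49 FPKM. Root cap genes summed to 15.4, 12.8 and 10.7 FPKM, with BRN1 highest (6.31 ± 0.960), followed by SMB, BRN2 and FEZ. The 6 genes of dividing cells summed to 69.9, 68.0 and 54.3 FPKM. CDKB2;1 was the highest of them at 26.5 ± 2.29 FPKM. Of the 6, 5 were lowest in replicate 3, as were 6955 of the 17149 genes with a mean of at least 30 counts. KNOLLE, for example, had 210, 194 and 120 counts and CYCB1;2 had 233, 189 and 133 counts. CDKB2;2 was the exception, at 128, 123 and 138 counts.

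Markers of other organs were at or near 0 for reproductive tissue and measurable for green tissue. Of 10 seed genes, 7 were listed in no library, and the highest, SESA4, had 4, 1 and 5 counts. Of 7 flower genes, AP1, AG, SEP2 and SEP3 were listed in none, and PI was the highest at 0.760 FPKM. Of 4 pollen genes VGD1 and ADF7 were listed in none and ACT12 stood at 0.180 FPKM, but the tubulin gene TUB9 was listed at 44.4 ± 3.12 FPKM (SD, n = 3). Of 20 genes of photosynthesis, 16 had a mean of at least 1 FPKM, and their list summed to 432, 502 and 473 FPKM. RBCS1A stood at 103 ± 6.69 FPKM, PSBO1 at 84.1 ± 6.01 FPKM and RCA at 71.6 ± 6.39 FPKM. RBCS1B and RBCS2B, near-identical to each other, were not listed in replicate 1 and stood at 1.95 and 2.18 FPKM in replicate 2. Replicate 1 was the lowest library for this list, at -0.14 on the log2 scale from the gene mean at the median, and what part green tissue has in any other value was not tested.

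Genes that are used as references in Arabidopsis assays varied about as much as other genes of their level. All 15 were above 1 FPKM, and their median coefficient of variation (CV, the SD of scaled counts over their mean) was 8.02%, against 8.87% for all genes between 10 and 100 FPKM and 9.34% between 100 and 1000 FPKM. MON1 was the steadiest, with 822, 794 and 750 counts and a CV of 1.34%, at 26.8 ± 1.19 FPKM (SD, n = 3). ACT2 (CV 3.22%), ACT8 (4.18%), ACT7 (4.33%), YLS8 (4.67%), PP2AA3 (4.70%) and TUB4 (5.36%) followed. TUA4, GAPC2, UBC9, UBQ10 and AT5G60390 lay between 8.02% and 10.7%, and UBC21, UBQ5 and AT5G15710 between 12.5% and 18.0%. None of the 15 was at least 2-fold apart between libraries, which is near the 2.39% found among all genes with a mean of at least 30 counts.

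Across all 17149 genes with a mean of at least 30 counts the median CV was 10.7%, with quartiles of 6.50% and 16.6%. The counting error alone, at the mean count of each gene, had a median of 6.18%. The common biological coefficient of variation estimated by edgeR, the spread beyond counting error, was 0.127, and it was 0.0650 when replicate 3 was left out. Median CV depended on level: it was 13.0% for the 41 genes of at least 1000 FPKM, 9.34% between 100 and 1000 FPKM, 8.87% between 10 and 100 FPKM and 13.5% between 1 and 10 FPKM. The genes with the smallest CV among the 2445 with a mean of at least 50 FPKM were CESA6, a subunit of primary wall cellulose synthase, with 5013, 4946 and 4695 counts and a CV of 0.0514%, and PLDALPHA1, a phospholipase D, with 8595, 8514 and 8086 counts and a CV of 0.293%. MSRB5, LPAT2, AT1G06700, HSP90.1, SYP71, GRF1, ACX1 and SPP followed, with CVs from 0.346% to 0.567%. These are the smallest of 2445 CVs from 3 libraries each, and the order describes these libraries only.

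At least 2-fold between the highest and the lowest library, after scaling, was found for 410 of the 17149 genes, 2.39% of those examined, and for 24 genes when replicate 3 was left out. Replicate 3 was the library apart in 345 of the 410, higher in 137 genes (0.799% of those examined) and lower in 208 (1.21%). Replicate 1 was apart in 37 genes, 18 higher and 19 lower, and replicate 2 in 28, 8 higher and 20 lower.

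Among genes with a mean of at least 5 FPKM the widest differences were in genes of the phosphate starvation response, through which a root short of phosphate takes up, releases and saves the ion. IPS1, a non-coding RNA that sequesters a microRNA of this response, had 34, 33 and 399 counts, a 12.7-fold difference. PEPC1, a phosphatase, had 59, 62 and 661 counts (12-fold), and SPX3, which binds the regulators of the response, had 32, 32 and 347 counts (11.6-fold). In each of these genes replicates 1 and 2 were nearly equal and replicate 3 was far higher. The other genes among these 10 widest were AT3G25240 (25, 23 and 237 counts), AT5G17345 (15, 16 and 139), which overlaps AT5G17340 (17, 13 and 113), the pyrophosphatase gene PS2 (314, 275 and 1181) and AT5G20790 (252, 248 and 1054). AT5G40450 (2034, 2359 and 480 counts) and AT5G52280 (360, 394 and 100 counts) were lower in replicate 3. The filter used the mean of the 3 libraries. PEPC1, SPX3, AT3G25240, AT5G17345 and AT5G17340 were below 5 FPKM in replicates 1 and 2 and passed it only through replicate 3.

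Of 21 genes in the phosphate starvation list 19 had a mean of at least 30 counts, and 17 of these were at least 2-fold apart, compared with 2.39% of all genes. In 18 of the 19 replicate 3 was the highest library, as it was for 39.1% of all genes examined. That replicate 3 stood apart in phosphate starvation genes was known from earlier results of these data. These shares therefore describe the list and are no test of it. Transporters took part: PHT1;1 had 4045, 4126 and 8383 counts, PHT1;4 had 1183, 1358 and 3405, and PHT1;2, which is close in sequence to PHT1;1 and therefore uncertain, had 13, 6 and 74. PHT1;5, of the same family, had 16, 10 and 141 counts. PHT1;2, PHT1;5 and PHT1;8 (24, 29 and 87 counts) reached a mean of 30 counts only through replicate 3. Genes of lipid remodelling, which replaces phospholipids by sulfolipids and galactolipids, did so too, with SQD2 at 851, 906 and 2352 counts, SQD1 at 623, 580 and 1360, MGD2 at 85, 102 and 294 and MGD3 at 35, 28 and 154. GDPD1, a phosphodiesterase, had 1241, 1238 and 3828 counts and SPX1 had 661, 702 and 1789. GDPD1 overlaps AT3G02030 (325, 303 and 897 counts) over 681 bases on the opposite strand, so these genes may share reads. The non-coding AT4 had 2838, 2730 and 6274 counts and was the highest member by FPKM, at 250, 240 and 554. WRKY75 went the other way, with 271, 401 and 245 counts, and PHO1;H1 hardly differed, with 545, 566 and 605 counts. Over the list the median departure from the gene mean was -0.56, -0.45 and 1.01 on the log2 scale in replicates 1, 2 and 3, while over all genes it was 0.00 in each.

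**Figure D3:**
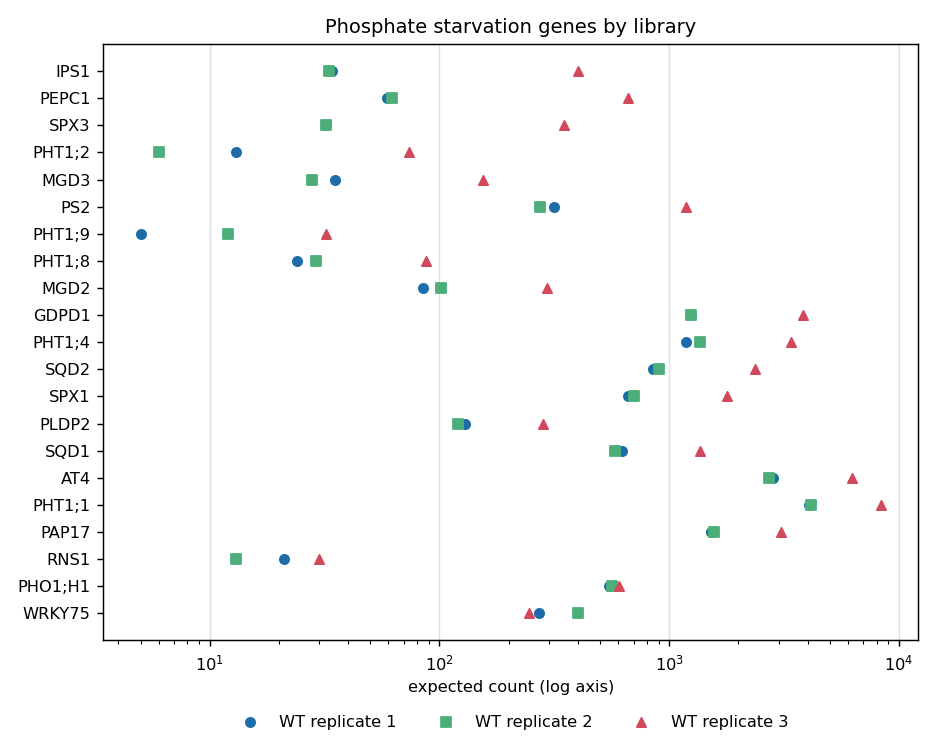
Expected counts (log axis) of the 21 phosphate starvation genes in the 3 WT libraries, ordered by the ratio of replicate 3 to the mean of the others. Replicates 1 and 2 lie close together for most genes, with PHT1;2 (13 and 6 counts) and WRKY75 (271 and 401) among the exceptions, and replicate 3 is the highest for every gene but WRKY75, from 399 against 34 and 33 counts in IPS1 to 605 against 545 and 566 in PHO1;H1.

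The 250 bases before the start were searched for GNATATNC, the P1BS motif recognised by PHR1 in Arabidopsis, a palindrome that reads the same on both strands. Among the 10 widest genes 4 held it, and 60 bases around the match nearest the start are shown on the strand of the gene, with the match in capitals.
SPX3 (chr2:18606294-18606353, plus strand): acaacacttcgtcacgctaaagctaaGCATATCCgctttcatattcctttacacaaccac
AT3G25240 (chr3:9192386-9192445, plus strand): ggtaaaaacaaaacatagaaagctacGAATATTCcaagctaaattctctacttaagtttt
PS2 (chr1:27466532-27466591, minus strand): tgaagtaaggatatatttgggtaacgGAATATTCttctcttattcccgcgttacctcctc
AT5G17340 (chr5:5716363-5716422, minus strand): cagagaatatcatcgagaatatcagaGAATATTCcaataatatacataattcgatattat
The motif was present in 7 of the 21 windows of the phosphate list (33.3%), in 23 of the 137 genes that were higher in replicate 3 (16.8%), in 8 of the 208 that were lower (3.85%) and in 951 of the 17144 windows of all genes with a mean of at least 30 counts (5.55%). Without the genes of the phosphate list it was present in 16 of 120 genes higher in replicate 3 (13.3%). The 137 and the 208 genes were picked by their values in replicate 3. Some of the 137, such as AT3G25240 (25, 23 and 237 counts), reached a mean of 30 counts only through that library. The shares describe these picked sets, and no test was made on them. IPS1 and PEPC1 did not hold these letters in this window. The upstream window of AT5G17340 overlaps AT5G17345.

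Some genes of other nutrients also differed in replicate 3. In the sulfur list 3 of the 5 genes with enough counts were at least 2-fold apart, against 2.39% of all genes. All 5 were highest in replicate 3, against 39.1% of all genes. LSU1, induced by low sulfur, had 125, 174 and 360 counts, LSU2 had 233, 257 and 579, and ATSDI1 had 59, 71 and 128. The sulfate transporter SULTR1;2, the highest of the list at 77.4 ± 12.1 FPKM (SD, n = 3), had 2233, 2420 and 3001 counts. HAK5, a high-affinity potassium transporter in none of the lists and named after its values were seen, had 31, 34 and 233 counts, an 8.03-fold difference. In the nitrate list none of 9 genes was 2-fold apart, and 8 were highest in replicate 3, against 39.1% of all genes, among them NRT1.1 (3629, 4746 and 5479 counts) and NIA2 (3197, 3135 and 4272 counts). In the iron list 1 of 10 was 2-fold apart, against 2.39% of all genes. It was the iron transporter IRT1, which was lowest in replicate 3 with 244, 220 and 101 counts. FRO2, the root ferric reductase, was likewise lowest there, with 159, 144 and 81 counts, whereas AHA2 and NAS1 were highest there.

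The remaining response lists held no gene at least 2-fold apart, a count near the 2.39% of all genes. Heat shock genes were led by HSP70 at 247 ± 9.76 FPKM (SD, n = 3) and HSP90.1 at 63.2 ± 2.43 FPKM, and hypoxia genes by SUS1 at 25.5 ± 0.232 FPKM and LBD41 at 8.74 ± 0.613 FPKM. ADH1, a classic marker of oxygen shortage, was listed at 6.05 ± 0.542 FPKM. Abscisic acid and cold genes were higher: COR47 stood at 611 ± 74.3 FPKM, ERD10 at 301 ± 34.6, KIN2 at 267 ± 29.3 and LTI30 at 190 ± 31.3 FPKM, while COR15A was near 0 with at most 1 count per library. Touch and wounding genes were highest in replicate 3 in 8 of 9 cases, against 39.1% of all genes, with ERF104 at 68.7, 87.1 and 102 FPKM and TCH3 at 14.3, 12.2 and 20.8 FPKM. Clock genes moved in both directions. The morning genes CCA1 (986, 872 and 574 counts), LHY (843, 911 and 568) and PRR9 (438, 486 and 254) were lower in replicate 3, the evening gene ELF4 (77, 68 and 112 counts) was higher, and TOC1 (610, 616 and 599 counts) hardly differed.

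**Figure D4:**
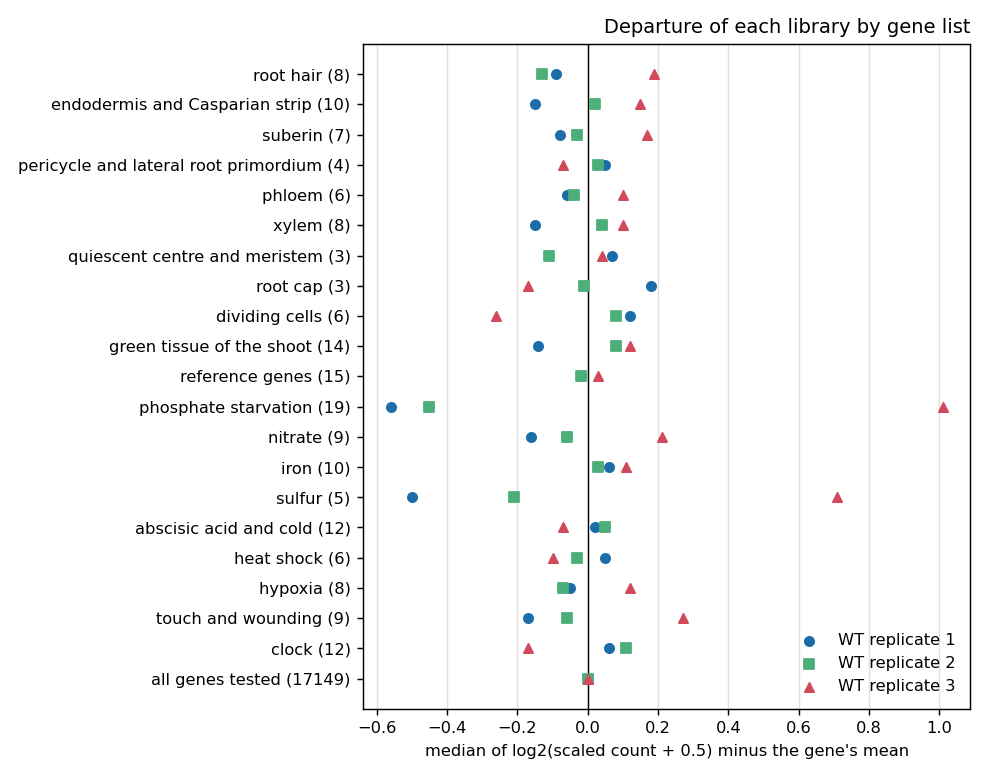
Median over the genes of each list of log2(scaled count + 0.5) minus the gene's mean over the 3 libraries, 1 point per WT library, with the number of genes that had a mean of at least 30 counts in parentheses. The phosphate starvation list (1.01) and the sulfur list (0.71) have the largest departures in replicate 3, and the median over all genes is 0.00.

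Genes that were lower in replicate 3 were longer than average. The 208 genes at least 2-fold lower had a median length of 2829 bases, compared with 1304 bases for the 137 higher genes and 1677 bases for all genes examined. Among them were genes of large proteins of the cytoskeleton, chromosomes and nuclear envelope: NET1A (418, 356 and 93 counts), the phragmoplast kinesins POK2 (208, 169 and 48) and POK1 (143, 156 and 47), the nuclear pore protein NUA (1097, 1014 and 414) and the chromosome structure protein TTN8 (576, 598 and 237). These 5 genes were named after their values were seen, and how many of the 208 are of such kinds was not counted. Over all genes the median difference between replicate 3 and the mean of the others changed steadily with length, from 0.16 on the log2 scale below 500 bases to -0.06 between 2000 and 3000 bases and -0.38 at 5000 bases or more. Between replicates 1 and 2 it stayed between -0.02 and 0.01 in the same length classes.

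**Figure D5:**
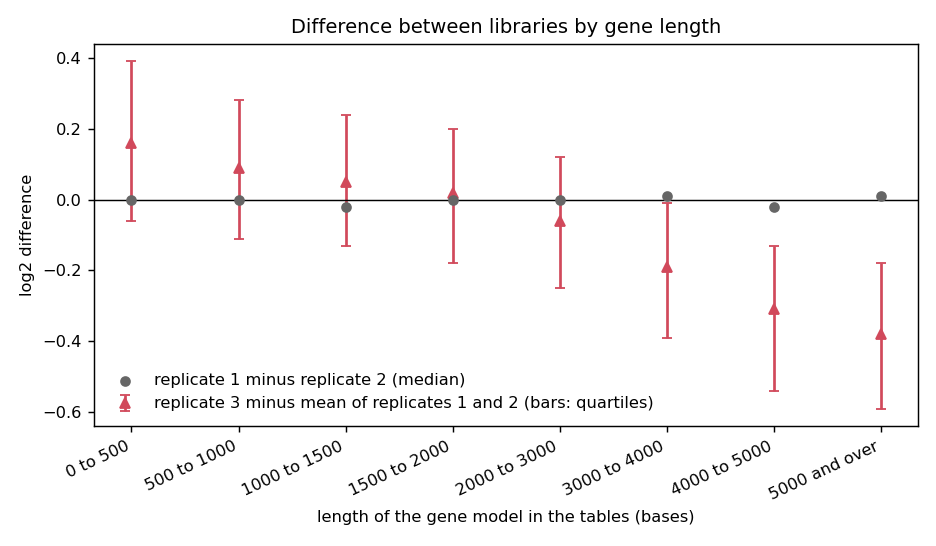
Log2 difference of scaled counts between libraries by length class of the gene model. Triangles give the median of replicate 3 minus the mean of replicates 1 and 2, with bars from the first to the third quartile, and fall from 0.16 to -0.38, while the circles for replicate 1 minus replicate 2 stay near 0.

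Ribosomal protein genes were lower in replicate 3 than the mean of the others in 236 of 301 cases (78.4%), compared with 50.5% of all genes examined. All 25 aquaporin, 17 dirigent, 7 germin-like and 6 metallothionein genes with a mean of at least 30 counts were higher in replicate 3. These families, and the PHT1 phosphate transporters, were those with no gene lower there. Of these genes 1 aquaporin, 1 dirigent and 2 germin-like genes, besides the PHT1 transporters, were at least 2-fold apart, against 2.39% of all genes examined. GC content showed a curved pattern, with median differences of 0.13 on the log2 scale below 36% GC, -0.06 between 40% and 42% and 0.24 at 48% or more. The median departure in replicate 3 was -0.26 over 6 markers of dividing cells, 0.19 over 8 of root hairs and 0.17 over 7 of suberin. It was 0.04 over 3 markers of the quiescent centre and meristem and -0.17 over 3 of the root cap. Without replicate 1 the root cap value was -0.08, but departures from a mean of 2 libraries are smaller by construction. The part of gene length, cell composition or plant nutrition in the differences was not tested.

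A few genes differed between replicates 1 and 2, which were otherwise alike. AT1G09310 had 9, 62 and 33 counts, the widest of the 24, and the mean levels of the 24 were 1.09 to 3.82 FPKM. In replicate 3, AT1G59218, a disease resistance gene with near-identical copies, had no counts against 82 and 132 in the others, and PRA1.F4 had none against 48 and 61. Against a floor of 3 counts per library these are at least 43.5-fold and at least 19.9-fold lower than in the highest library. How reads of near-identical genes were divided is not given in the sources used here, so these values are uncertain.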

How the data were processed

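Total RNA of WT roots was column-purified and sequenced on an Illumina platform from randomly primed cDNA, per the labels' protocols. The authors deposited, per library, an expected count (an estimated count that need not be whole) and an FPKM for each gene with a value above 0, per the file headers; absent genes were read as 0. The sources used here do not name the aligner, counting tool, strand setting or genome build. Gene names, coordinates, lengths and upstream sequences came from RefSeq TAIR10.1, to which 22833 of 22990 listed genes matched; of 2547 genes with a position in the authors' deposited comparison tables, 2544 overlapped their RefSeq position.

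Expected counts were scaled by TMM factors (edgeR 4.0.16, R 4.3.3; factors 1.03, 1.01 and 0.963). Spread was computed for genes with a mean of at least 30 counts as the CV, as the ratio of the highest to the lowest library with a floor of 3 counts per library, and as departures of log2(scaled count + 0.5) from the gene mean. Dispersion was estimated with edgeR on rounded expected counts. DESeq2 1.42.0 size factors, other minimums, pseudocounts and thresholds, and leaving out each library were alternatives. The steps were tested on simulated data. Tables were made with Python 3.11.15 and pandas 2.3.3. No test between groups was run, so no p-value is given.

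The genes named were the 25 highest by FPKM, the 10 highest by count, the 10 with the widest fold (mean of at least 5 FPKM), the 10 steadiest (at least 50 FPKM), up to 3 leading members of each family, all markers (1 is not reported here) and reference genes, leading and widest members of each response list, the top gene of each transcription factor family, ERF13 and KCS16. Others are said to be named after their values were seen, or are neighbours or overlapping partners of these. The members and lists were chosen with earlier results of these data known.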

Additional observations from a re-analysis of the deposited data

How the results depend on the processing

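For 97 results, 412 values were recomputed under alternatives. Of these, 390 stayed within 1 SD, within 1.5 times the reported count or on the same side of 2-fold, and 22 did not. The SD was that between libraries for shares and mean FPKM. For CV and dispersion it was the SD of the values with 1 library left out. For list departures it was the SD between the genes of a list, 0.713 for phosphate starvation. That limit is wide, so the 119 list departures that stayed, against 1 that moved, say little about stability. Direction was not part of this rule: the quiescent centre and meristem departure in replicate 3 went from 0.04 to -0.02 with log2(FPKM + 0.1). Leaving out 1 library gave 105 of the values for family shares and 75 for mean FPKM. A mean of 3 libraries cannot move by 1 SD in this way, so these were bound to stay. Ranked by FPKM, the top 100 genes held 25% of the FPKM sum, while ranked by count they held 20.4% of the counts. Without a minimum count the median CV was 13.4%, and leaving out 1 library each gave 6.28% to 10.9%. The dispersion estimate ranged from 0.0650 to 0.159 in the same way. The count of 410 genes at least 2-fold apart became 142 from log2(FPKM + 1), 883 with a minimum of 10 counts and 177 with a minimum of 100; 2451 genes were at least 1.5-fold and 51 at least 3-fold apart. Leaving out 1 library each gave 24 to 311 genes, with 24 without replicate 3. All 10 widest genes fell below 2-fold without replicate 3. No paired analysis was possible because no groups were compared. Low counts limit ERF13, WOX5 and genes of similar level.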

Other observations

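Other genes, chosen after their values were seen, were also among the 60 widest of at least 5 FPKM, with replicate 3 the highest library. Of all genes examined, 0.799% were at least 2-fold apart with replicate 3 apart and higher. The share within each gene group named here was not counted, so the genes do not describe their pathways. The glycerol-3-phosphate transporter gene G3Pp1 had 1380, 1428 and 3237 counts in replicates 1, 2 and 3, and the phospholipase gene NPC4 had 194, 215 and 526. LSU3, a low-sulfur gene next to LSU1 on chromosome 3, had 75, 95 and 199. Chitinase genes, whose products cleave fungal walls, were highest there too: ChiC had 493, 445 and 1256 counts and HCHIB had 2335, 2467 and 5310. AT3G12502 overlaps HCHIB over 1579 bases on the opposite strand, so the value of HCHIB is uncertain. A pair of genes of methionine-derived glucosinolate synthesis, IPMI1 (129, 81 and 242 counts) and BCAT4 (131, 90 and 226 counts), was highest in replicate 3 and lowest in replicate 2. Replicates 1 and 2 were close to each other in G3Pp1, NPC4 and HCHIB and less so in IPMI1 and BCAT4.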
